A study of Mus musculus with 8 samples.

Results

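The miRNAs of the Dlk1-Dio3 imprinted cluster were examined in mouse renal artery cells sorted as CD34+/CD105-. The 52 members are the miRNAs of this locus on a list of names, each matched to an assay on the cards by its name, out of 750 distinct miRNA assays in all. Each of the 52 was read from its mouse assay, passenger-strand rows left out, which took 56 distinct assays in 58 rows of the deposited table. Each sample held the cells of a single mouse, 4 with sham surgery and 4 with renal ischemia/reperfusion injury, made by clamping the renal arteries on both sides. CD34 marks endothelial and progenitor cells, and CD105 (endoglin) marks activated endothelium and mesenchymal stromal cells. Strain, age, any transgene and the times of ischemia and reperfusion were not stated in the labels. The endothelial markers miR-126-3p and miR-126-5p were detected in all 8 samples.

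The cluster lies between the genes Dlk1 and Dio3 on mouse chromosome 12, where only the copy inherited from the mother gives rise to the miRNAs. They are cut from long non-coding RNAs known as Meg3 (Gtl2), the transcript antisense to Rtl1, Rian and Mirg, while Dlk1, Rtl1 and Dio3 are read from the father's copy. The locus is known for strong expression in the embryo, placenta and brain, and in mesenchymal and progenitor cells, with lower levels in most adult tissues. In the RefSeq annotation of GRCm38.p6, a hairpin was found for 49 of the 52 members, in 43 hairpins over 180.1 kb, all on the plus strand. miR-544, miR-666-3p and miR-666-5p were not matched to a hairpin.

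The sequences below are those of the miRNAs on which the results turn, with the seed, bases 2 to 8, in capitals. The first 7 were detected in at least 3 mice of a group, and the last 2 are the undetected partner arms of miR-337-5p and miR-434-3p. All are from RefSeq (GRCm38.p6). Where an assay name carries no arm, the arm shown is the one that bore the plain name before arms were added to the names.
miR-673 (5p arm): cUCACAGCucugguccuuggag
miR-337-5p: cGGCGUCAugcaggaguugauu
miR-127 (3p arm): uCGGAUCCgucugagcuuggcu
miR-434-3p: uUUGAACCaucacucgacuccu
miR-379 (5p arm): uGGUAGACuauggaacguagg
miR-411 (5p arm): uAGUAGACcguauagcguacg
miR-410 (3p arm): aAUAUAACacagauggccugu
miR-337-3p: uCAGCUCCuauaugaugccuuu
miR-434-5p: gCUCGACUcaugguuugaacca
The mature sequence of miR-376c, which was also detected in 3 mice of a group, was not matched. Over the 28 members with a matched mature sequence there were 28 different seeds, so no 2 of them share a seed. miR-379 and miR-411, whose hairpins start 1.115 kb apart, are the same at 14 of 21 positions and at 6 of the 7 seed bases.

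The readout was the threshold cycle (Ct) of real-time PCR, the cycle at which the signal crosses a set level, so more RNA gives a lower Ct. A miRNA counted as detected below Ct 35. Levels are given as minus delta Ct, the reference Ct of the sample minus the Ct of the assay, on a log2 scale where higher means more RNA and 1 unit is a doubling if the PCR is fully efficient. In samples of sorted cells, fewer cells of a type and less RNA per cell cannot be told apart. The reference Ct on the first card was between 17.9 and 22.4 in sham mice and between 20.5 and 22.4 after ischemia/reperfusion. With 75 detected assays, sham mouse 2 lay lowest of the 8 samples, beside 82 to 98 in the ischemia/reperfusion mice and up to 163 in sham mice. It also had the highest reference Ct, close to that of ischemia/reperfusion mouse 2. The gap to the next sham mouse was 0.591 of the sham range for all assays and 0.40 for the cluster members, below the critical value of Dixon's test for 4 samples. Sham mouse 2 was therefore kept, and results that rest on it are given with and without it.

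Most of the cluster was not detected in these cells. Of the 52 members, 19 (36.5%) were detected in at least 1 mouse, beside 187 of all 750 miRNA assays (24.9%). Only 2 members, miR-673 and miR-411, were detected in all 8 mice, and miR-127 was detected in 7. A further 5 members, miR-337-5p, miR-434-3p, miR-376c, miR-379 and miR-410, were detected in 3 of 4 sham mice and in 2 or fewer of the 4 ischemia/reperfusion mice. The other 11 detected members were each found in at most 2 mice of a group. They are miR-134, miR-136, miR-380-5p, miR-381, miR-382, miR-409-3p, miR-433, miR-485-3p, miR-541, miR-543 and miR-667.

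**Figure D1:**
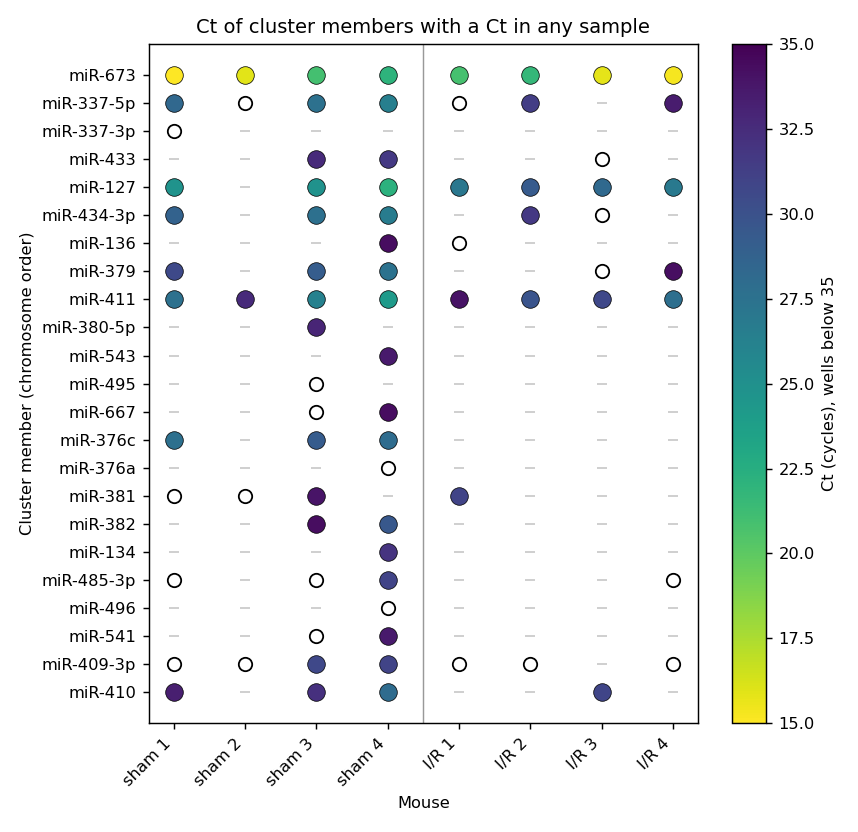
Ct of the 23 cluster members that had a Ct in any sample, in chromosome order from top to bottom, for sham mice 1 to 4 and ischemia/reperfusion (I/R) mice 1 to 4. Filled circles are wells below Ct 35 coloured by Ct, open circles are wells at a Ct over 35, and dashes are wells without a Ct. Sham mice 3 and 4 hold most of the filled circles, while sham mouse 2 and the I/R mice hold between 2 and 5 each.

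In 3 of 4 sham mice more members were detected than in any ischemia/reperfusion mouse. Sham mice 1 to 4 had 8, 2, 13 and 17 detected members. Ischemia/reperfusion mice 1 to 4 had 4, 5, 4 and 5. Sham mouse 2 lay below every ischemia/reperfusion mouse. The mean was 10.0 ± 6.48 (SD, n = 4) in sham and 4.5 ± 0.577 (SD, n = 4) after ischemia/reperfusion. The difference of -5.5 was smaller than the SD of the sham mice. Leaving out sham mouse 2 moved the sham mean to 12.7 ± 4.51 (SD, n = 3) and the difference to -8.17. Leaving out sham mouse 4 moved the difference the other way, to -3.17.

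Of the 19 detected members, 11 were found below Ct 35 in sham mice only, 8 in both groups and 0 in ischemia/reperfusion mice only. Found in sham only does not mean absent after ischemia/reperfusion. Among the 11, miR-136, miR-409-3p, miR-433 and miR-485-3p had a Ct over 35 there. For miR-409-3p it was 35.1, 36.3 and 37.2 in ischemia/reperfusion mice 1, 2 and 4. Over all assays, 58 of the 187 detected (31%) were found in sham mice only and 5 (2.67%) in ischemia/reperfusion mice only. As many as 10 of the 19 were found only in sham mouse 3 or 4 or in both, beside 40 of the 187. Without sham mouse 4, 5 of 13 detected members were found in sham only, beside 37 of 166 assays (22.3%). Without sham mouse 2 it was 11 of 19 beside 30.6% of assays, and without sham mouse 3 it was 10 of 18 beside 29.1%. In 15 of the 19 members the number of sham mice with detection exceeded that of ischemia/reperfusion mice, beside 57.2% of all detected assays. miR-127, with no Ct in sham mouse 2, was the only member with more ischemia/reperfusion than sham mice, and 3 members had equal numbers.

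Among the 4 sham mice, more members were detected where the reference Ct was lower. Sham mice 4 and 3 had the lowest reference Ct on the first card, 17.9 and 19.0, and the most members, and sham mouse 2 had the highest, 22.4, and the fewest. In ischemia/reperfusion mice 3, 1, 4 and 2 the reference Ct was 20.5, 21.02, 21.7 and 22.4, and the number of members was 4, 4, 5 and 5, so that order did not hold there. Sham mouse 1, at 20.7, held 8 members. A low reference Ct lets Ct 35 reach deeper: it lay at a minus delta Ct of -17.06 in sham mouse 4 and of -12.56 in sham mouse 2 on the first card. Members were therefore also counted above the limit of the shallowest sample, -12.56 on the first card and -11.97 on the second, in every sample. At that common limit, chosen after the data were seen, sham mice 1 to 4 held 7, 2, 8 and 9 members. Ischemia/reperfusion mice 1 to 4 held 3, 5, 4 and 4. All miRNA assays then counted 112, 75, 113 and 113 in the sham mice and 79 to 82 after ischemia/reperfusion.

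Outside sham mouse 2, the groups still did not overlap at the common limit, with a sham mean of 8.0 ± 1.0 (SD, n = 3) and an ischemia/reperfusion mean of 4.0 ± 0.816 (SD, n = 4). Including sham mouse 2, sham mice averaged 6.5 ± 3.11 (SD, n = 4), and the groups overlapped. Without sham mouse 2, the ischemia/reperfusion mean was 0.5 of the sham mean for the members and 0.714 of it for all assays. The count of members found in sham only shrank to 4 of 11, beside 24.7% of all assays above that limit. These 4 were miR-376c, miR-379, miR-382 and miR-409-3p, and miR-381 was now found in ischemia/reperfusion only. The call of miR-379 was close, since ischemia/reperfusion mouse 4 lay at -12.59, just below the limit. The part of the input RNA in these counts was not tested.

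**Figure D2:**
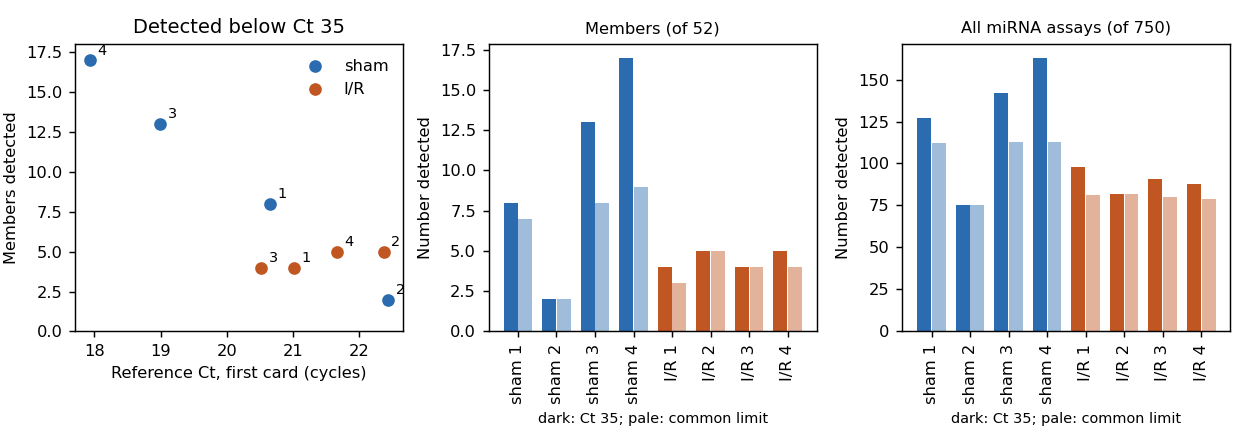
Left, the number of cluster members below Ct 35 against the reference Ct of the first card in cycles, with mouse numbers beside the points. Middle and right, the number of members and of all miRNA assays detected in each mouse, at Ct 35 (dark bars) and at the common limit (pale bars). At the common limit sham mice 1, 3 and 4 hold 7 to 9 members, sham mouse 2 holds 2, and the ischemia/reperfusion (I/R) mice hold 3 to 5.

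Along the chromosome, the members fall into a block from Mir770 to Mir136, within the annotated spans of Meg3 and Rtl1 (chr12:109563692-109595388), Mir370 within Rian, and a block from Mir379 to Mir410 (chr12:109709060-109743795). In the first block 6 of 13 members were detected, with 16 of 52 sham wells and 11 of 52 ischemia/reperfusion wells below Ct 35. In the block from Mir379 to Mir410, 13 of 35 members were detected, with 24 of 140 sham wells and 7 of 140 ischemia/reperfusion wells. Over all miRNA assays, 16.9% of sham wells and 12.0% of ischemia/reperfusion wells were below Ct 35. Wells of the same mouse are not independent of each other. miR-370, the member within Rian, had no Ct in any mouse. Of the 11 ischemia/reperfusion wells in the first block, 4 were those of miR-673 and 4 those of miR-127. Of the 7 in the second block, 4 were those of miR-411. In both blocks most of these wells thus came from members detected in all 4 ischemia/reperfusion mice. The difference between the blocks was not tested.

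**Figure D3:**
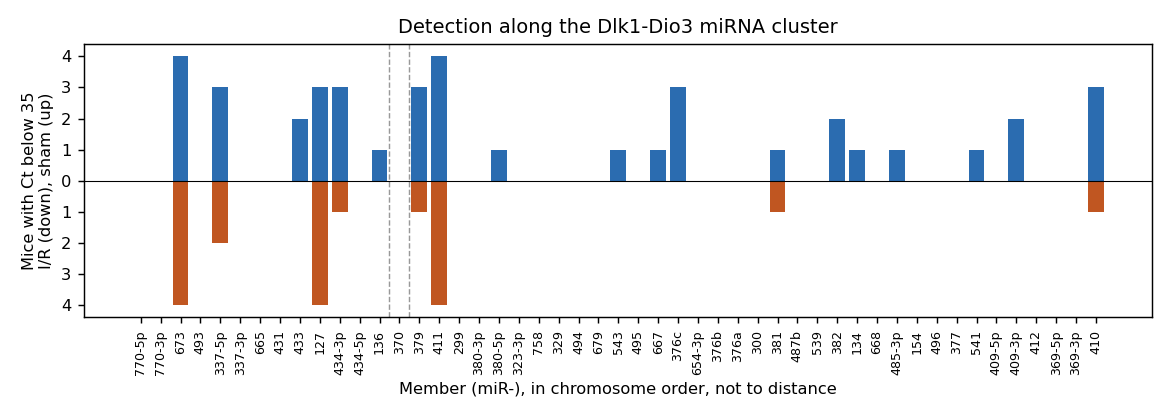
Number of mice, out of 4 per group, in which each of the 49 members with a matched hairpin was detected below Ct 35, in chromosome order but not to distance. Bars point up for sham and down for ischemia/reperfusion (I/R), and dashed lines set off miR-370. From miR-379 to miR-410, the I/R bars are at 4 for miR-411 and at 1 for miR-379, miR-381 and miR-410.

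In the first block, mmu-miR-673 gave the lowest Ct of any member. It comes from a hairpin just downstream of Meg3 (Mir673, chr12:109571990-109572080). Sham mice 1 to 4 reached Ct 14.99, 15.9, 20.96 and 22.1. After ischemia/reperfusion it was 20.9, 21.7, 15.8 and 15.3 in mice 1 to 4. In each group 2 mice lay near Ct 15 to 16 and the other 2 near Ct 21 to 22, so the spread ran within both groups and not between them. Minus delta Ct was 6.47, 7.15, -0.75 and -3.29 in the sham mice and 0.55, 0.92, 5.76 and 6.63 in the ischemia/reperfusion mice. Sham mice averaged 2.39 ± 5.21, and ischemia/reperfusion mice averaged 3.47 ± 3.18 (SD, n = 4 each). The log2 difference was 1.07 ± 2.57 (SE; limma adjusted p = 0.785), and it turned to -0.82 without sham mouse 4. Among the 54 miRNAs detected in all 8 samples, miR-673 had the second highest standard deviation over the samples, 4.03 against a median of 1.27.

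Other wells for this hairpin gave no signal. The second row of the same mouse assay had no Ct in any mouse. That was also so for the second rows of all 12 assays with a repeated row. The rat miR-673 assay on the first card and the assay for the other arm, miR-673-3p, also had no Ct in any mouse. The sequence of the rat assay was not compared.

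mmu-miR-127 is a product of the transcript antisense to Rtl1 and fully complementary to the Rtl1 message (Mir127, chr12:109592846-109592915). Its Ct was 24.7, 24.8 and 22.2 in sham mice 1, 3 and 4, with no Ct in sham mouse 2. Ischemia/reperfusion mice 1 to 4 were at 27.1, 29.3, 28.2 and 26.9. In Ct the groups did not overlap where it was measured. Against the reference they did overlap, at -4.10, -5.84 and -4.29 in the sham mice and at -6.05, -6.96, -7.71 and -5.24 after ischemia/reperfusion. The log2 difference was -1.75 ± 0.82 (SE; 3 sham and 4 ischemia/reperfusion values; limma adjusted p = 0.374, unadjusted p = 0.0676). Leaving out any single mouse kept it between -2.30 and -1.34. Without normalization it was -3.95 (limma adjusted p = 0.0632), beside a median of -1.93 over the 72 tested miRNAs on that scale. Of those 72, 65 were lower after ischemia/reperfusion without normalization, so a higher Ct there was not particular to miR-127.

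The direction of miR-127 depends on the missing well. With Ct 35 in the well of sham mouse 2, the log2 difference was 0.21 ± 1.79 (SE, n = 4 per group), and with Ct 40 it was 1.46. In that mouse Ct 35 lay at a minus delta Ct of -12.56, lower than every measured value of miR-127. miR-411 was also at its lowest sham value there.

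mmu-miR-434-3p, whose hairpin lies next to that of miR-127 (Mir434, chr12:109594506-109594599), was measured in the same 3 sham mice. Its Ct was 28.8, 27.7 and 26.7 in sham mice 1, 3 and 4, a minus delta Ct of -8.13, -8.66 and -8.74. After ischemia/reperfusion it was detected only in mouse 2, at Ct 31.7 and a minus delta Ct of -9.32. Mouse 3 had a Ct of 36.01, a minus delta Ct of -15.49, and mice 1 and 4 had none. The sham values lay close together, and mouse 2 lay just below them. With wells not detected set to Ct 35 the log2 difference was -3.25 ± 1.39 (SE, n = 4 per group; limma adjusted p = 0.260). The wells of sham mouse 2 and of ischemia/reperfusion mice 1, 3 and 4 were filled in that fit. The SE and p therefore do not measure the spread after ischemia/reperfusion. miR-434-3p entered the fit because of the sham mice, which partly fixes the direction.

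mmu-miR-337-5p (Mir337, chr12:109585789-109585885) had a Ct of 28.3, 27.6 and 26.5 in sham mice 1, 3 and 4, and of 37.4 in sham mouse 2. After ischemia/reperfusion it was at 35.5, 31.3 and 33.5 in mice 1, 2 and 4, with no Ct in mouse 3. On the minus delta Ct scale the detected sham values were -7.64, -8.64 and -8.54, and the detected ischemia/reperfusion values were -8.96 in mouse 2 and -11.84 in mouse 4. All detected sham values were thus higher than both. The wells over Ct 35 were at -14.94 in sham mouse 2 and at -14.48 in ischemia/reperfusion mouse 1. With sham mouse 2 included, the groups overlapped, since it lay below every ischemia/reperfusion well with a Ct. With wells not detected set to Ct 35 the log2 difference was -2.97 ± 1.48 (SE, n = 4 per group; limma adjusted p = 0.312). The wells of sham mouse 2 and of ischemia/reperfusion mice 1 and 3 were filled in that fit, so the SE and p do not fully measure the spread. miR-337-5p too entered the fit because of the sham mice, which partly fixes the direction. Ischemia/reperfusion mouse 2 was the only one in its group with miR-434-3p and had the highest miR-337-5p value of its group.

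In both hairpins a single arm gave the signal. miR-434-5p had no Ct in any mouse, and miR-337-3p had a single Ct of 37.6, in sham mouse 1. Likewise miR-409-3p and miR-380-5p were detected, while miR-409-5p and miR-380-3p had no Ct in any mouse. For miR-369, miR-666 and miR-770 neither arm had a Ct. Arms are compared here by detection alone, since assays of different sequence can differ in efficiency.

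The remaining members of the first block were weak or not detected. miR-433 reached Ct 32.7 and 31.7 in sham mice 3 and 4, and had a Ct of 35.95 in ischemia/reperfusion mouse 3. miR-136 reached Ct 34.3 in sham mouse 4, and had a Ct of 36.6 in ischemia/reperfusion mouse 1. Against the reference miR-136 was higher in the latter, at -15.56 beside -16.38. miR-431, miR-493, miR-665 and both arms of miR-770, which is encoded within Meg3, had no Ct in any mouse.

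In the second block, mmu-miR-411 was the only member measured in every mouse (Mir411, chr12:109710175-109710256). Sham mice 1 to 4 had a Ct of 27.6, 32.6, 26.3 and 24.2. Ischemia/reperfusion mice 1 to 4 had a Ct of 34.0, 29.8, 30.6 and 27.8. The minus delta Ct was -6.97, -10.20, -7.27 and -6.22 in the sham mice and -13.02, -7.43, -10.11 and -6.11 after ischemia/reperfusion. All sham values lay within the ischemia/reperfusion range, the highest value of all being that of ischemia/reperfusion mouse 4. Sham mice averaged -7.67 ± 1.75, and ischemia/reperfusion mice averaged -9.17 ± 3.06 (SD, n = 4 each). The log2 difference of -1.50 ± 1.53 (SE; limma adjusted p = 0.605) shrank to -0.22 without ischemia/reperfusion mouse 1 and grew to -2.52 without ischemia/reperfusion mouse 4.

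mmu-miR-379, the first hairpin of the block and the neighbour of miR-411 (Mir379, chr12:109709060-109709125), was detected in 3 sham mice and 1 ischemia/reperfusion mouse (Fisher's exact test p = 0.486). Its Ct was 30.6, 29.1 and 27.4 in sham mice 1, 3 and 4, and 35.6 and 34.3 in ischemia/reperfusion mice 3 and 4. The other 3 mice had none. The sham values were close to each other against the reference, at -9.97, -10.15 and -9.49. In ischemia/reperfusion mice 3 and 4 it was at -15.11 and -12.59, and in mice 1 and 2 Ct 35 corresponds to -13.98 and -12.63. All 4 ischemia/reperfusion mice thus lay below the 3 measured sham values, or had no Ct at a limit below them. Sham mouse 2 had no Ct either, with the limit at -12.56, so the full groups did not separate. Detection in at least 3 sham mice and at most 1 ischemia/reperfusion mouse was seen for 25 of 750 assays (3.33%). In the ischemia/reperfusion mice miR-411 ran from -13.02 to -6.11.

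mmu-miR-376c, from a group of related hairpins that also holds miR-376a and miR-376b (Mir376c, chr12:109722718-109722803), was measured in sham mice only. Its Ct was 27.7, 29.3 and 28.0 in sham mice 1, 3 and 4, a minus delta Ct of -7.05, -10.26 and -10.10. No ischemia/reperfusion mouse had a Ct, where Ct 35 corresponds to -13.98, -12.63, -14.48 and -13.33 in mice 1 to 4. Sham mouse 2 had no Ct either, with the limit at -12.56. Fisher's exact test of detection, 3 of 4 against 0 of 4, gave p = 0.143 (adjusted p = 1). miR-376b had no Ct in any mouse, and miR-376a had a single Ct, over 35, in sham mouse 4.

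mmu-miR-410, the last hairpin of the block (Mir410, chr12:109743715-109743795), did not follow miR-379 and miR-376c. Its Ct was 33.3, 32.2 and 28.0 in sham mice 1, 3 and 4, and 30.9 in ischemia/reperfusion mouse 3, the only one of its group with a Ct. The minus delta Ct was -12.65, -13.22 and -10.05 in the sham mice and -10.38 in that mouse, within the sham range. miR-381 showed its lowest Ct after ischemia/reperfusion, at 31.0 in mouse 1, against 33.9 in sham mouse 3 and Ct over 35 in sham mice 1 and 2. Members of the block were therefore not all missing in the same ischemia/reperfusion mice.

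**Figure D4:**
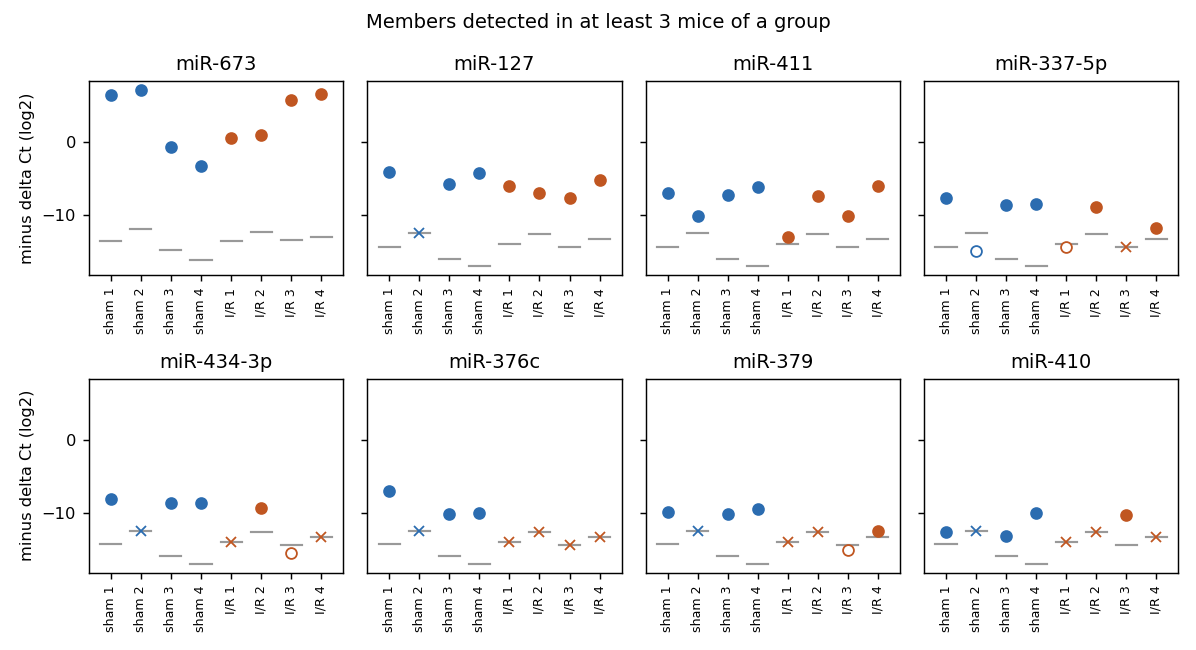
Minus delta Ct (log2, higher means more RNA) of the 8 members detected in at least 3 mice of a group, for sham mice (blue) and ischemia/reperfusion mice (I/R, orange). Filled circles are wells below Ct 35, open circles wells with a higher Ct, and crosses wells without a Ct, drawn at the grey line, which marks the level of Ct 35 in that mouse. miR-376c and miR-379 lie between -10.26 and -7.05 in the 3 sham mice with a Ct, and at -12.59 or lower, or without a Ct, in every I/R mouse. Sham mouse 2 has no Ct for either.

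The rest of the second block was detected below Ct 35 almost only in sham mice 3 and 4. miR-382 was detected in both, at Ct 34.3 and 29.6, and miR-409-3p in both, at Ct 30.7 and 31.0. miR-380-5p was detected in sham mouse 3 alone, at Ct 33.0. Below Ct 35, sham mouse 4 alone had miR-485-3p at Ct 31.0, miR-541 at 33.6, miR-543 at 33.6 and miR-667 at 34.3. Just over that limit, sham mouse 3 had miR-485-3p at 35.2, miR-541 at 35.2 and miR-667 at 35.04. Against the reference miR-667 was at -16.04 in sham mouse 3 and at -16.39 in sham mouse 4. miR-485-3p also had a Ct of 35.5 in sham mouse 1 and of 37.8 in ischemia/reperfusion mouse 4. Sham mouse 4 alone also had miR-134, known for a role in neuronal dendrites, at a minus delta Ct of -14.06. miR-495 and miR-496 had a single Ct over 35 each, in sham mice 3 and 4. No Ct in any mouse was likewise found for miR-154, miR-299, miR-300, miR-323-3p, miR-329, miR-377, miR-412, miR-487b, miR-494, miR-539, miR-654-3p, miR-668, miR-679 and miR-758. miR-544, not placed in a block, had none either.

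Levels were tested only for miRNAs detected in at least 3 mice of each group, which left 72 miRNAs, among them 3 members, miR-127, miR-411 and miR-673. By limma with Benjamini-Hochberg adjustment over the 72, 0 of the 3 passed 0.05, as did 0 of all 72 (0%). At an unadjusted p under 0.05, the counts were 0 of 3 and 10 of 72 (13.9%). The exact permutation test gave unadjusted p values of 0.114, 0.457 and 0.657 for miR-127, miR-411 and miR-673. Under an unadjusted p of 0.05 it placed 2 of the 72. After adjustment it passed 0 members and 0 of 72, but this could hardly come out otherwise. Its smallest p was 0.0286, the lowest that so few mice allow, and a few miRNAs at that p cannot pass adjustment over 72. miR-127 and miR-411 were lower after ischemia/reperfusion and miR-673 was higher, beside 68.1% of the 72 that were lower. In 0 of the 3 did all measured ischemia/reperfusion values lie below all sham values against the reference, beside 5 of the 72 (6.94%). The median log2 difference of the 72 was -0.80, which moved to -0.24 when samples were centred on the miRNAs detected in all of them.

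**Figure D5:**
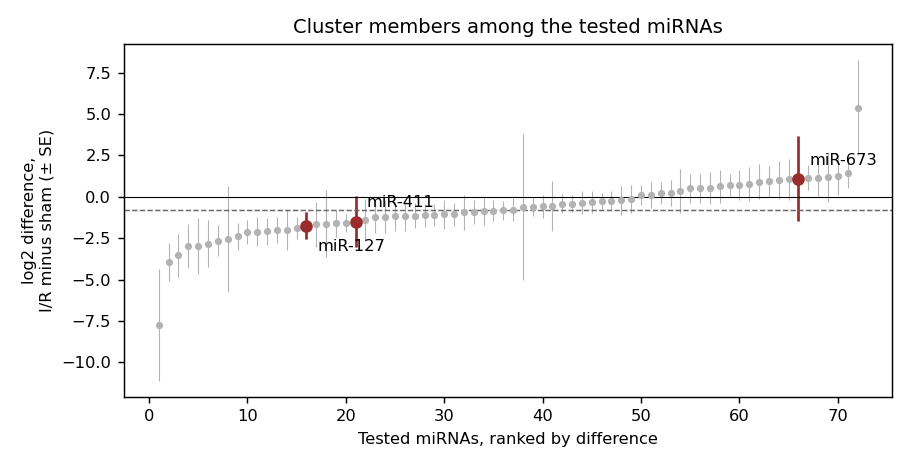
Log2 difference between ischemia/reperfusion (I/R) and sham (± SE from limma) of the 72 tested miRNAs, ranked from lowest to highest, with the 3 tested cluster members in red and the others in grey. The dashed line is the median of the 72, -0.80, and the members rank 16, 21 and 66.

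The other 5 members found in at least 3 sham mice enter a test only if wells not detected are given a value. With those wells at Ct 35, 114 miRNAs could be tested, and 0 of the 8 members and 1 of the 114 (0.877%) passed the limma adjusted threshold. At an unadjusted p under 0.05, 3 members were among 21 of the 114 (18.4%). miR-379 was at -2.88 ± 0.87 and miR-376c at -3.61 ± 1.12 (SE, n = 4 per group), both with a limma adjusted p of 0.197. Filled wells, which make up most of their ischemia/reperfusion values, vary only with the reference Ct. The SE and p therefore do not measure the spread of these miRNAs in that group. miR-410 was at -0.46 ± 1.02 (limma adjusted p = 0.786). The sizes depend on the value filled in: with wells without a Ct at Ct 40, miR-376c was at -7.36 (limma adjusted p = 0.0982), miR-379 at -4.28 and miR-410 at -2.96, and again 0 members passed. All 5 were lower after ischemia/reperfusion, as were 73.7% of the 114, but miR-410 turned to 0.23 without sham mouse 4 and to 0.0060 without ischemia/reperfusion mouse 1. They passed the filter because of the sham mice, which partly fixes that direction.

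Without sham mouse 2, the same fit placed miR-379 (-3.55 ± 0.71, limma adjusted p = 0.0285) and miR-376c (-4.47 ± 0.96, limma adjusted p = 0.0370) past the threshold (SE; 3 sham and 4 ischemia/reperfusion mice). All 4 ischemia/reperfusion values of miR-376c, and all but 1 of miR-379, were wells set to Ct 35. Such wells vary only with the reference Ct, so SE and p do not measure the spread after ischemia/reperfusion. miR-379 and miR-376c were 2 of 6 miRNAs called among the 114 (5.26%). At an unadjusted p under 0.05, 4 members were among 25.4% of the 114, and 73.7% of the 114 were lower after ischemia/reperfusion. Across the 8 fits that left out a mouse with wells at Ct 35, the adjusted p ran from 0.0285 to 0.379 for miR-379 and from 0.0370 to 0.372 for miR-376c. Only the fit without sham mouse 2 placed either past the threshold. Leaving out a mouse for its low signal favours a lower value in the other group, so this is no separate test. miR-337-5p and miR-434-3p did not pass in that fit, with limma adjusted p values of 0.126 and 0.0886.

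In the detection pattern of at least 3 sham mice and at most 1 ischemia/reperfusion mouse there were 4 of the 52 members, miR-376c, miR-379, miR-410 and miR-434-3p, beside 25 of 750 assays (3.33%). The reverse pattern held 0 members, beside 2 assays (0.267%). Fisher's exact test on the assays detected in 1 to 7 samples called 0, whether p under 0.05 was taken with or without adjustment. Its smallest p was 0.143, and with 4 mice per group only 4 of 4 against 0 of 4 could reach 0.0286.

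Sham mice 1, 3 and 4 held the most members. In them the markers of mesenchymal cells, smooth muscle and epithelium were each higher than in sham mouse 2. Of the 7 miRNAs listed for fibroblasts and mesenchymal cells, 6 were detected, and miR-199a-5p was not. miR-214 was detected in 3 sham and 4 ischemia/reperfusion mice, miR-199b in 2 and 1, and miR-143 in 2 and 0. miR-199a-3p, miR-152 and miR-21 were detected in equal numbers. The levels of the list, as 2 to the power of minus delta Ct, summed to 0.0488, 0.0119, 0.0429 and 0.0480 across sham mice 1 to 4, with 4, 2, 6 and 6 of the miRNAs detected. The sums were 0.0231, 0.0137, 0.0232 and 0.000906 across ischemia/reperfusion mice 1 to 4. Sham mice 1, 3 and 4, the sham mice with miR-376c, miR-379 and miR-434-3p, were thus also the highest in these markers. Among the ischemia/reperfusion mice this did not hold, since miR-379 was detected in mouse 4, with the lowest sum, and miR-434-3p in mouse 2, with the second lowest. The smooth muscle markers, 2 of 2 detected, summed to 0.00289, 0.000309, 0.00129 and 0.00254 in sham mice 1 to 4, again highest in mice 1, 3 and 4, and to between 0.000159 and 0.000684 after ischemia/reperfusion. The 2 lists are not separate, since miR-143, detected in 2 sham and 0 ischemia/reperfusion mice, is on both. The endothelial markers ranged from 0.0377 to 0.113 in sham, where sham mouse 2 was highest, and from 0.0181 to 0.0380 after ischemia/reperfusion.

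Leukocyte markers, 7 of 8 detected without miR-142-5p, ranged from 0.00733 to 0.0332 in sham and from 0.00485 to 0.0587 after ischemia/reperfusion. Among the sham mice, mouse 2 was highest in them. Of 10 epithelial and tubule markers 4 were detected, and miR-200a, miR-200b, miR-200c, miR-141, miR-429 and miR-215 were not. Their sum was 0.0152, 0, 0.364 and 0.0231 in sham mice 1 to 4, where 2, 0, 3 and 4 of them were detected. It ran from 0 to 0.0923 after ischemia/reperfusion. Among the sham mice it was thus also lowest in mouse 2, so that order was not particular to mesenchymal or smooth muscle markers. Of the 7 neural markers with an assay only miR-138 was detected, in 2 sham mice, while miR-124 and miR-9 were not. Of the erythroid markers 0 of 3 were detected, and of the striated muscle markers with an assay 2 of 5. The part of other cell types in the results on the members was not tested.

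Another 38 assays on the cards name the same locus, among them 12 passenger-strand rows and 22 assays with a rat or human name, some of them both. Of the 38, 2 were detected in any mouse. These were the passenger strand of miR-376b, in 3 sham mice and 0 ischemia/reperfusion mice with a lowest Ct of 30.7, and an assay named miR-337 without an arm, in 1 sham mouse at Ct 34.4.

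For 12 of the members a fold is given in the authors' deposited table, 7 under 1 and 5 over 1. Only 4 of the 12 had every measured well below Ct 35. For miR-409-3p the fold in the authors' deposited table is 267. It counts ischemia/reperfusion mouse 3, which has no Ct but a deposited delta Ct of -20.5, equal to a Ct of 0 minus the reference. From the wells with a Ct the fold was 0.617, with 4 sham and 3 ischemia/reperfusion wells, of which 5 were over Ct 35. For miR-381 the authors' deposited table gives 48.1 and for miR-410 3.01, each from a single ischemia/reperfusion well. The authors' deposited table gives 0.0635 for miR-379, from 3 sham and 2 ischemia/reperfusion wells.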

How the data were processed

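RNA from sorted cells of 8 mice was measured by real-time PCR on a 7900HT system, per the labels' protocols. The authors deposited a Ct table and a table of delta Ct with folds. Per the deposited values, delta Ct (log2 scale) is the Ct minus a single reference per sample and card, within 7.11e-15 cycles. What the reference RNA was is not given in the sources used here. Per the file headers, the authors' fold change is a ratio, 2 to the power of mean sham minus mean experimental delta Ct. In 13 wells a delta Ct stands without a Ct, and they were set to missing.

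Minus delta Ct was analysed. Wells at Ct 35 or more were missing, and repeated rows were averaged. The 72 miRNAs detected in at least 3 mice per group were compared with limma 3.58.1 in R 4.3.3 (two-sided, Benjamini-Hochberg threshold 0.05), and the fit was checked on simulated data. Fisher's exact test, two-sided, was run on detection. Permutation tests were exact and two-sided. The number of mice limits the precision. The members, lists and naming rule were chosen with earlier results of these data known. The rule names members detected in at least 3 mice of a group with every value, the others by their wells, and no other miRNA but markers and assays of the same locus. Alternatives were other references, detection limits, values for missing wells, a filter of 2 mice per group, mouse number as a block, the permutation test, the deposited delta Ct as it stands, and leaving out each mouse.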

Additional observations from a re-analysis of the deposited data

How the results depend on the processing

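miR-411 was lower after ischemia/reperfusion in all 29 alternatives, but many of these could not move it. It was below Ct 35 in all 8 mice, so settings such as values for missing wells left it at -1.50. In the main setting that difference was smaller than its SE of 1.53. miR-127 turned to 0.21 with wells not detected at Ct 35 (0.21 also with the replicate block) and to 1.46 with wells without a Ct at Ct 40. With wells at Ct 35 and mice left out singly, miR-127 ran from -1.75 to 1.07, at 1.07, 0.49 and 1.01 without sham mice 1, 3 and 4 and at 0.060, 0.36 and 0.61 without ischemia/reperfusion mice 1, 2 and 3. miR-673 was at -0.82 without sham mouse 4, and its values without a mouse ran from -0.82 to 2.66. miR-410 turned to 0.23 without sham mouse 4 and to 0.0060 without ischemia/reperfusion mouse 1, both with wells at Ct 35. Among members, limma calls stayed at 0 except for 2 without sham mouse 2 and with wells at Ct 35. Over all tested miRNAs, 0 passed in the main setting, and 1 passed with wells not detected at Ct 35, 1 with wells without a Ct at Ct 40 and 1 with a detection limit of Ct 37. Leaving out mice singly gave 0 to 1, and from 0 to 6 with wells at Ct 35. Members detected in sham only numbered 7 at a limit of Ct 32 and 4 at the common limit, and 5 to 12 with a mouse left out, the 5 without sham mouse 4. The difference in the mean number of members detected was -5.5, from -8.17 to -3.17 with a mouse left out and from -6.5 to -2.5 under the other limits.

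With mouse number as a replicate block, 0 members passed. miR-127 was then at -1.59 and miR-411 at -1.50. Samples of the same number did not deviate together, with correlations between -0.38 and 0.02 over 54 miRNAs, so the numbers were not taken as pairs. Of the 33 members never below Ct 35, 29 had no Ct in any mouse and 4 had only a Ct over 35. Whether these miRNAs were absent or below the reach of the assay was not tested.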
